A study of Mus musculus with 8 samples.

Results

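The transcripts described here are those of 8 genes. Slc2a2, G6pc2, Abcc8 and Kcnj11 act in how a pancreatic beta cell takes up, traps and reads glucose. Hk1, Hk2, Ldha and Slc16a1 are genes that beta cells keep low, as explained below. All 8 were taken by exact gene symbol from a table of 23309 genes, and each was found in it. The table comes from RNA sequencing of N134, a C57BL/6 mouse line that the labels call a beta cell tumor of the pancreas and the study's title a pancreatic neuroendocrine tumor. In 4 libraries, numbered 5 to 8, the cells overexpressed GFP-miR-431 (miR-431 below). In the other 4, numbered 1 to 4, they are labelled GFP-miR-LacZ, with control as treatment (miR-LacZ below). All libraries share 1 cell line. Whether a group's 4 libraries were grown separately, or each construct introduced more than once, is not given in the labels, so p-values measure only how these libraries vary, which may be technical variation. Values are read as FPKM, sequenced fragments scaled to transcript length and library size, a unit inferred from the tools named and the values. On that reading, levels can be compared between genes as well as between libraries.

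In a beta cell, glucose enters through a facilitative transporter and is trapped by phosphorylation; G6PC2 removes that phosphate again and so shifts the threshold for secretion. The ATP made from glucose closes the KATP channel, built from the pore Kir6.2 (Kcnj11) and the sulfonylurea receptor SUR1 (Abcc8), and calcium entry then releases insulin. Another set of genes is called disallowed because beta cells keep them low although most tissues express them. High-affinity hexokinases would phosphorylate glucose even when it is scarce. Lactate dehydrogenase A (Ldha) with the lactate and pyruvate transporter MCT1 (Slc16a1) would divert pyruvate or let circulating pyruvate trigger release.

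The overexpressed microRNA has a mature form on each arm of its hairpin. They are shown with the seed, bases 2 to 8, in capitals, because the seed is the part that pairs with target messages (RefSeq, GRCm38.p6, plus strand, 5′ to 3′).
mmu-miR-431-5p: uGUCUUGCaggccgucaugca
mmu-miR-431-3p: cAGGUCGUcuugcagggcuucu
The 5p arm lies at chr12:109590459-109590479 and the 3p arm at chr12:109590502-109590523. In the longest 3′ UTR of each member in GENCODE M21, read on the sense strand only, neither the 5p seed match GCAAGAC nor the 3p seed match ACGACCT was found, that is, in 0 of 8 members each. Among 10750 tested genes with a 3′ UTR, 755 (7.02%) held the 5p match and 168 (1.56%) the 3p match. A shorter match, lacking only its first base, was found in Slc2a2 and Kcnj11 for the 5p form and in Hk1 for the 3p form. How often that shorter match occurs over all tested genes was not counted. The members' 3′ UTRs ran from 42 bases in Abcc8 to 3883 bases in Slc2a2, around a median of 1212 bases over tested genes, so some windows are short. The absence of a match says only that these letters are not in these windows.

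The libraries carried what their labels say. Mir431 was listed at 18114 to 37769 FPKM under miR-431 and at 0 in all 4 miR-LacZ libraries, although FPKM of so short a gene is no dependable amount. The 10 beta cell markers examined were all above the level tested, with summed levels of 20491 to 33084 FPKM under miR-431 and 24475 to 40713 FPKM under miR-LacZ, mostly from Ins2. That sum hides single markers, of which 3 fell, 2 rose and 5 did not pass the limma test described below. Ins1, the other rodent insulin gene, was at 388.7 ± 126 FPKM under miR-431 and 3332 ± 1405 FPKM under miR-LacZ (limma adjusted p = 0.000148). Ucn3, a marker of mature beta cells, was at 37.3 ± 7.95 FPKM under miR-431 and 1.73 ± 1.24 FPKM under miR-LacZ (limma adjusted p = 3.45e-05). The transcription factor genes Pdx1 and Nkx6-1 fell by 0.52 each on the log2 scale, and Nkx2-2 rose by 0.31. Summed acinar markers stood at 0.262 to 0.597 FPKM under miR-431 and 1.13 to 3.22 FPKM under miR-LacZ, carried by Cela1, with Prss1 and Amy2a5 at 0 throughout and Cela2a at 0.170 FPKM under miR-431 and 0.0794 FPKM under miR-LacZ on average. Endothelial markers summed to 1.41 to 2.87 FPKM under miR-431 and 0.583 to 0.786 FPKM under miR-LacZ, carried by Plvap, while Pecam1 averaged 0.0568 FPKM under miR-431 and 0.0969 FPKM under miR-LacZ. Fibroblast markers summed to 0.691 to 1.05 FPKM under miR-431 and 1.92 to 3.20 FPKM under miR-LacZ, with Pdgfra the highest and Col3a1 at 0 throughout. Leukocyte markers summed to 0.780 to 1.68 FPKM under miR-431 and 0.835 to 1.33 FPKM under miR-LacZ. Duct markers summed to 90.1 to 197 FPKM under miR-431 and 78.7 to 133 FPKM under miR-LacZ, almost wholly from Krt7, while Krt19 and Sox9 stayed below 0.1 FPKM in every library. Markers of other islet hormone cells summed to 68.8 to 180 FPKM under miR-431 and 55.3 to 159 FPKM under miR-LacZ, mostly from Gcg. Of these, the acinar, endothelial and fibroblast sums did not overlap between the groups, and like the beta cell markers that passed, they moved with the construct; their part in the results below was not tested. Libraries miR-LacZ 1 and miR-431 5 stand apart from the other 6 in the spacing of their lowest values (details under processing), so differences are also given without them and within that pair.

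Across the genome, 3454 of 11807 tested genes (29.3%) passed a limma Benjamini-Hochberg adjusted p of 0.05, with 15.4% higher and 13.8% lower under miR-431. Against that background, 6 of the 8 members reached the level tested (1 FPKM or more in at least 4 libraries), and 0 of these 6 passed, by limma on log2(FPKM + 1). At an unadjusted limma p below 0.05 the count was also 0, beside 4922 of the 11807 tested genes. The median log2 fold change of these 6 members was −0.16, beside −0.0053 over all tested genes. Hk1 and Hk2 lay below the level tested, and they were the only members whose 2 groups did not overlap, where 31.1% of tested genes, and 7.99% (miR-431 higher) and 8.31% (miR-431 lower) of genes below that level, did not overlap either. Because whole cultures were sequenced, fewer cells expressing a gene and less RNA per cell cannot be told apart. The intervals of the tested members leave room for changes of some size, as given for each gene below.

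**Figure D1:**
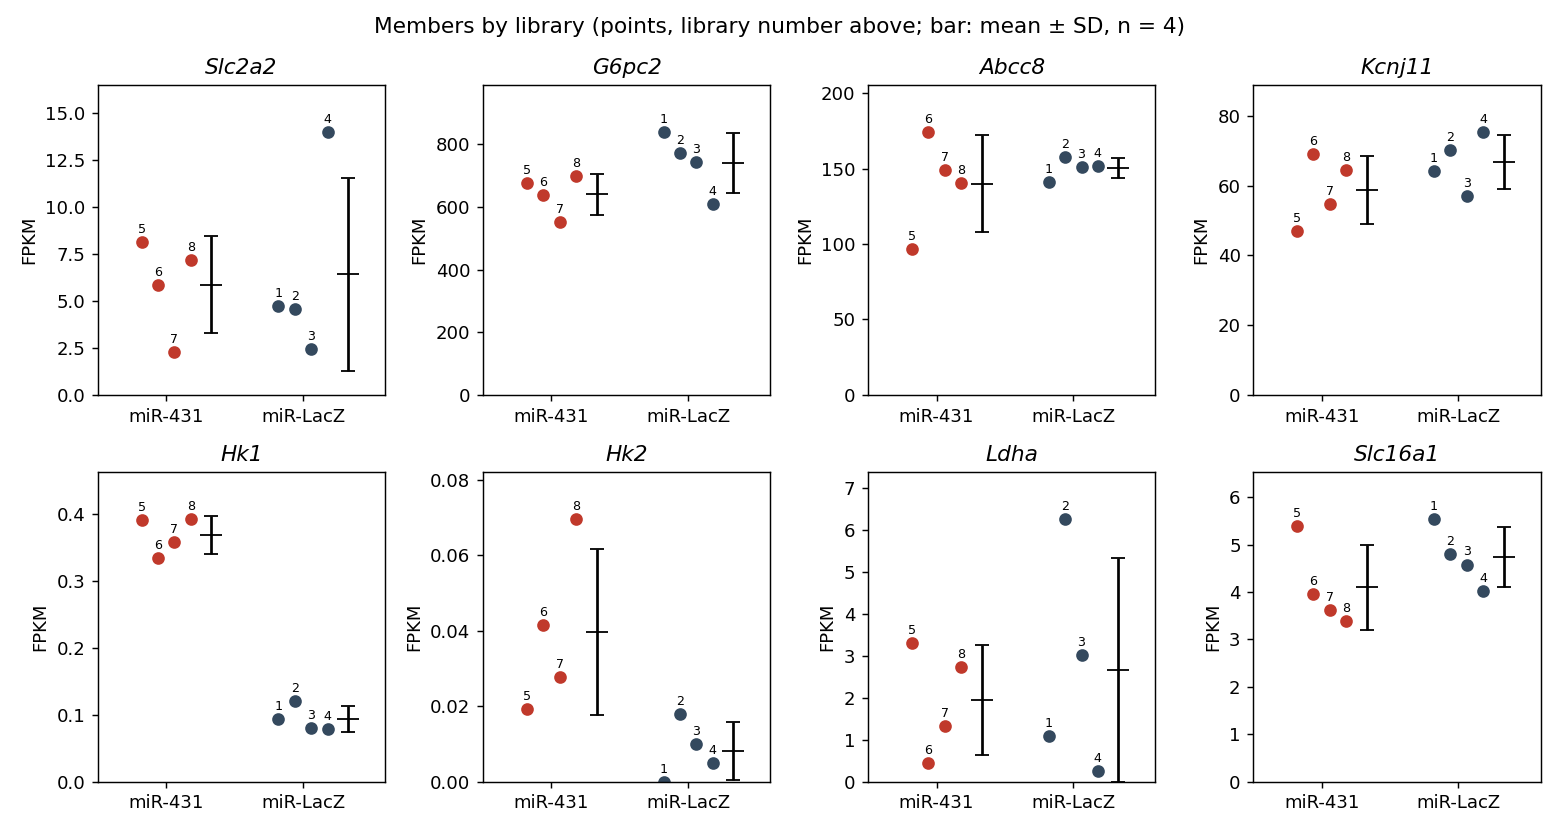
FPKM of the 8 members in each library, 1 panel per gene with its own axis from 0; miR-431 libraries 5 to 8 are red and miR-LacZ libraries 1 to 4 dark, and bars give mean ± SD (n = 4). The groups overlap in every panel except Hk1, where the miR-431 points sit at 0.335 to 0.393 FPKM and the miR-LacZ points at 0.0786 to 0.121 FPKM, and Hk2, where the levels are lower still.

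Slc2a2 (chromosome 3, 28596824 to 28627282, mm9, as for all members below) encodes GLUT2, the low-affinity transporter that brings glucose into rodent beta cells. It was read at 8.15, 5.81, 2.30 and 7.19 FPKM in libraries 5, 6, 7 and 8 of miR-431. In miR-LacZ libraries 1, 2, 3 and 4 it was read at 4.70, 4.58, 2.42 and 13.96 FPKM. One control library, 4, held the highest value and the remaining 7 lay within the same range, so the groups overlapped. The means were 5.86 ± 2.56 FPKM under miR-431 and 6.41 ± 5.14 FPKM under miR-LacZ (SD, n = 4 each). The log2 fold change was 0.012 (SE 0.43), its limma adjusted p was 0.986, and its 95% interval ran from −0.96 to 0.98. That interval includes changes of nearly 2-fold either way in FPKM + 1, which are larger changes in FPKM itself. Its sign was not stable: it stood at −0.29 without miR-LacZ 3 and at −0.21 in the 6 libraries other than 1 and 5, where the difference within libraries 5 and 1 was 0.68.

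GLUT2 was not the only glucose transporter in this line. Slc2a1, which encodes the widely expressed GLUT1, averaged 7.18 ± 0.906 FPKM under miR-431 and 6.51 ± 2.09 FPKM under miR-LacZ. Slc2a2 made up 40.0 ± 10.7% of the summed FPKM of 4 facilitative transporter genes under miR-431 and 43.1 ± 22.2% under miR-LacZ. The ratio of Slc2a1 to Slc2a2 ranged from 0.907 to 2.74 under miR-431 and from 0.269 to 2.93 under miR-LacZ, so Slc2a1 was the higher in 6 of the 8 libraries.

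G6pc2 (chromosome 2, 69058054 to 69066045), the islet glucose 6-phosphatase subunit that removes the phosphate from trapped glucose, was the most abundant member. Its levels were 676, 636, 551 and 699 FPKM in miR-431 libraries 5 to 8, against 838, 771, 742 and 609 FPKM in miR-LacZ libraries 1 to 4. Of the control libraries, 3 lay above every miR-431 library and the fourth lay below 3 of them. It averaged 641 ± 65.2 FPKM under miR-431 and 739.9 ± 96.2 FPKM under miR-LacZ (SD, n = 4 each), which placed it 87th among the 11807 tested genes in the controls. The log2 fold change was −0.20 (SE 0.14, 95% interval −0.51 to 0.0998, limma adjusted p = 0.287), which does not reach the threshold. It was −0.17 without libraries 1 and 5 and −0.31 within that pair. G6pc2 supplied 96.1 ± 0.631% of glucose 6-phosphatase FPKM under miR-431 and 96.2 ± 0.178% under miR-LacZ. The ubiquitous G6pc3 supplied nearly all of the rest, and the liver form G6pc was listed at 0 in 3 miR-431 and 2 miR-LacZ libraries.

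Abcc8 (chromosome 7, 53359892 to 53435403) and Kcnj11 (chromosome 7, 53352492 to 53356134) lie beside each other, with 3757 bases between them, and encode the 2 kinds of subunit of one channel. Abcc8 was read at 96.4, 174, 149 and 141 FPKM in miR-431 libraries 5 to 8. In miR-LacZ libraries 1 to 4 it was read at 141, 158, 151 and 152 FPKM. The control libraries lay close together, while miR-431 5 was the lowest and miR-431 6 the highest of all 8. The means were 140.1 ± 32.4 FPKM under miR-431 and 151 ± 6.82 FPKM under miR-LacZ, with a log2 fold change of −0.13 (SE 0.16, 95% interval −0.49 to 0.22, limma adjusted p = 0.558). That difference rested on 1 library: without miR-431 5 it was 0.034. In the 6 libraries other than 1 and 5 it was 0.0038, against −0.55 within libraries 5 and 1.

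Kcnj11 was read at 47.1, 69.0, 54.8 and 64.4 FPKM in miR-431 libraries 5 to 8, against 64.3, 70.2, 57.2 and 75.4 FPKM in miR-LacZ libraries 1 to 4. Library miR-431 5 was again the lowest, and the groups overlapped. The means were 58.8 ± 9.79 FPKM under miR-431 and 66.7 ± 7.82 FPKM under miR-LacZ, with a log2 fold change of −0.19 (SE 0.13, 95% interval −0.48 to 0.11, limma adjusted p = 0.315). It was −0.10 in the 6 libraries other than 1 and 5 and −0.44 within that pair. The ratio of Abcc8 to Kcnj11 was 2.37 ± 0.308 under miR-431 and 2.28 ± 0.266 under miR-LacZ (exact two-sided permutation p = 0.714, adjusted p = 0.857 over the 6 ratios computed between related genes), where 4 against 4 libraries can reach no p below 0.0286. Kcnj8 and Abcc9, which encode the vascular and muscle type subunits, stood below 0.3 FPKM in every library, so these 2 members supplied nearly all KATP subunit FPKM in both groups.

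**Figure D2:**
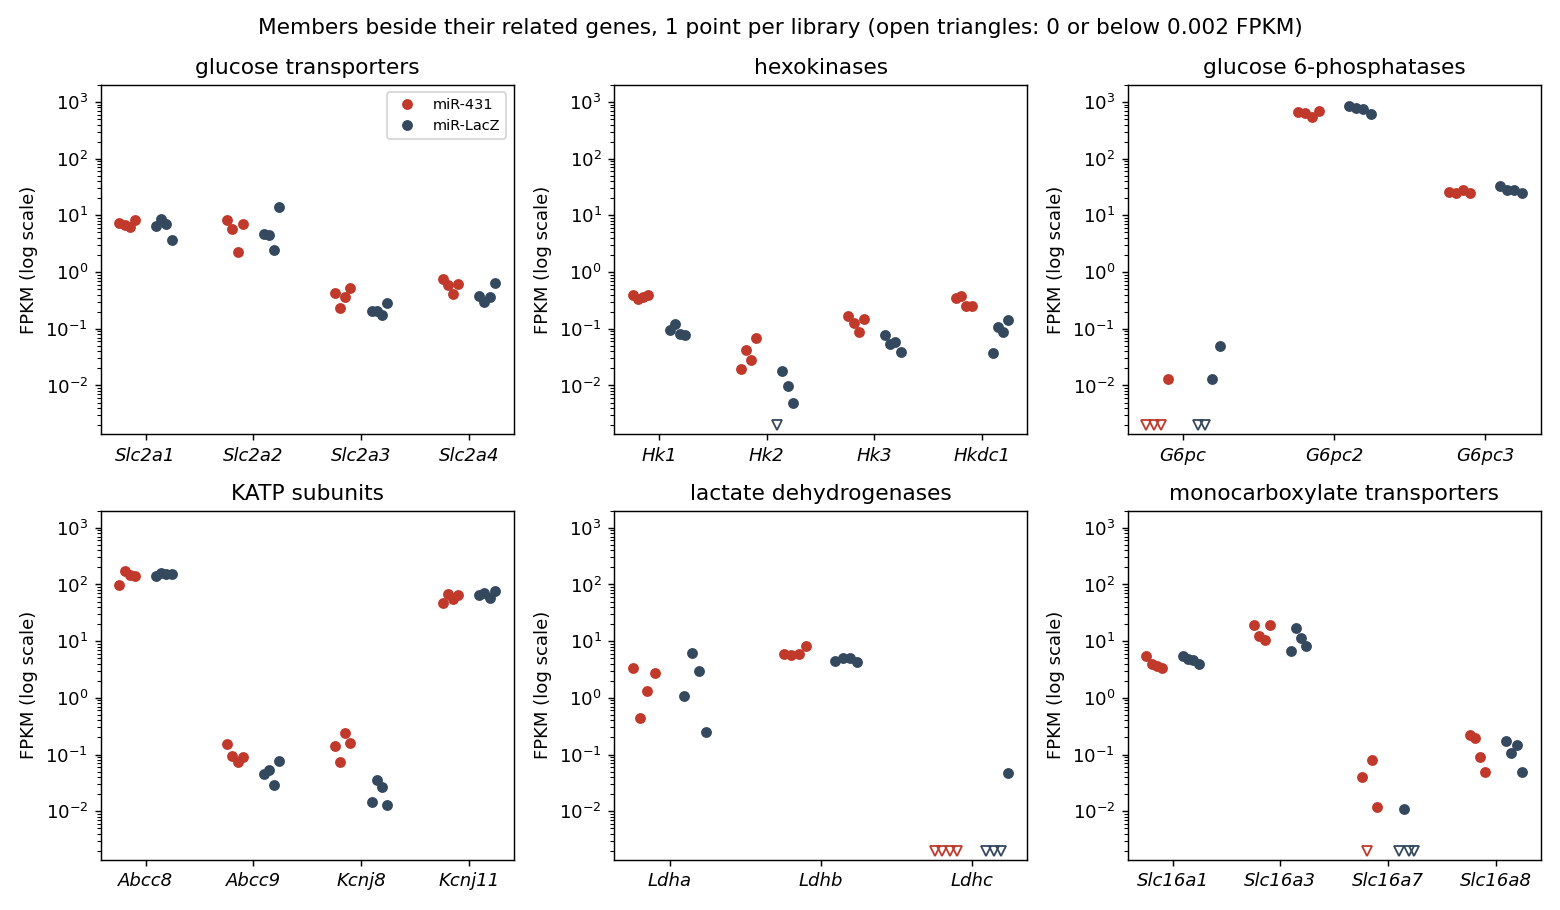
Each member beside related genes, as FPKM on a log scale with 1 point per library (miR-431 red, left of each name; miR-LacZ dark, right); open triangles mark values at 0 or below 0.002 FPKM. G6pc2, Abcc8 and Kcnj11 dominate their families in both groups, whereas Ldha and Slc16a1 lie at or below their relatives Ldhb and Slc16a3 in most libraries, and the 4 hexokinase genes plotted stay below 0.5 FPKM.

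Hk1 (chromosome 10, 61731602 to 61842656) encodes hexokinase 1, a high-affinity enzyme that most tissues express and beta cells keep low. It stood at 0.392, 0.335, 0.358 and 0.393 FPKM in miR-431 libraries 5 to 8. In miR-LacZ libraries 1 to 4 it stood at 0.0940, 0.121, 0.0798 and 0.0786 FPKM. Every miR-431 library lay above every control library, and the spread within each group was small. The means were 0.370 ± 0.0285 FPKM under miR-431 and 0.0934 ± 0.0197 FPKM under miR-LacZ (SD, n = 4 each), a ratio of 3.96. An exact two-sided permutation test gave p = 0.0286, the smallest that 4 against 4 libraries allow, in a family of 8 such tests in which Hk2 alone gave the same value and the other 6 lay between 0.171 and 1. Of 2536 genes with a mean of at least 0.1 FPKM that likewise lay below the level tested, 16.0% were separated in this direction, so separation by itself is not rare at this level.

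With no filter on low values, Hk1 passed the limma threshold (log2 fold change 0.32, SE 0.022, limma adjusted p = 9.82e-05), where 21.0% of 18903 genes passed. With a pseudocount of 0.01 in place of 1, chosen after the values were seen, the log2 fold change was 1.89 (SE 0.27) and the limma adjusted p was 0.00126, where 11.3% of genes passed in this direction, since a pseudocount of 1 hides most of a change below 1 FPKM. The difference was 0.32 in the 6 libraries other than 1 and 5 and 0.35 within that pair. Taking the commonest spacing of low values as 1 fragment, the Hk1 values correspond to about 47.4 to 59.7 fragments under miR-431 and 11.6 to 19.7 fragments under miR-LacZ on its longest annotated transcript. The 11.6 comes from miR-LacZ 1, whose low values are spaced unlike those of the 6 libraries, so it is less certain. In miR-LacZ 4 the figure was 11.9. The deposited locus of Hk1 is also that of 2210417K05Rik, which was at 0 in all 4 miR-LacZ and 2 of the miR-431 libraries, and reads are not stated to have been counted by strand.

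Hk2 (chromosome 6, 82675020 to 82724448) encodes hexokinase 2, the insulin-responsive form of muscle and fat. It was read at 0.0193, 0.0415, 0.0278 and 0.0696 FPKM in miR-431 libraries 5 to 8, against 0, 0.0180, 0.00992 and 0.00488 FPKM in miR-LacZ libraries 1 to 4. The groups did not overlap, but libraries 5 and 2, the closest of each group, differed by little (exact two-sided permutation p = 0.0286). Of 7096 genes above 0 in at least 1 library but below the level tested, 7.99% were separated in this direction and 8.31% in the other. On the same reading of the lowest values as for Hk1, these levels amount to about 3.53 to 13.6 fragments under miR-431 and 0 to 3.78 fragments under miR-LacZ, so counting error is large and no fold change is given. The 3.53 comes from miR-431 5, whose low values are also spaced apart, and miR-431 7 gave 4.74. With no filter the limma adjusted p was 0.0904, and with a pseudocount of 0.01 as well it was 0.0476. In every library the message stood below 0.1 FPKM.

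Of the other hexokinase genes, Hkdc1 and Hk3 also stayed below 0.5 FPKM in every library. Hkdc1, a hexokinase gene that lies 3227 bases from Hk1 on chromosome 10, was at 0.249 to 0.372 FPKM under miR-431 and 0.0371 to 0.142 FPKM under miR-LacZ. Hk3 was at 0.0875 to 0.169 FPKM under miR-431 and 0.0384 to 0.0784 FPKM under miR-LacZ. Hk3 and Hkdc1 were picked with their values in view, and 7.99% of all low genes, or 16.0% of those with a mean of at least 0.1 FPKM, were separated with miR-431 higher, so their separation is given as values only.

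Ldha (chromosome 7, 54101173 to 54110997), which turns pyruvate into lactate, varied most of the tested members. It was read at 3.31, 0.444, 1.32 and 2.73 FPKM in miR-431 libraries 5 to 8, against 1.08, 6.26, 3.01 and 0.254 FPKM in miR-LacZ libraries 1 to 4. The highest and the lowest of all 8 values were both controls, 24.6-fold apart, and the miR-431 libraries lay between them with a 7.46-fold range. The means were 1.95 ± 1.31 FPKM under miR-431 and 2.65 ± 2.67 FPKM under miR-LacZ (SD, n = 4 each). The log2 fold change of −0.12 (SE 0.51, limma adjusted p = 0.878) came with a 95% interval of −1.27 to 1.02, so the data do not settle its direction. It was −0.52 in the 6 libraries other than 1 and 5 and 1.05 within that pair, and 0.31 without miR-LacZ 2. With library weights estimated by limma it was −1.32 and passed (limma adjusted p = 0.0322, within 0.0322 to 0.999 over all alternatives).

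Ldhb, which encodes the subunit that favours the reverse reaction, was the larger lactate dehydrogenase message in 7 of the 8 libraries. It rose to 6.48 ± 1.20 FPKM under miR-431, against 4.72 ± 0.442 FPKM under miR-LacZ (log2 fold change 0.38, SE 0.12, limma adjusted p = 0.0368). The call ended without miR-431 5, 6 or 8 or without miR-LacZ 1, 2 or 4 (limma adjusted p of 0.0505 to 0.0854 and log2 fold changes of 0.27 to 0.42), and without libraries 1 and 5 together (0.38, limma adjusted p = 0.0952). It also ended with no filter on low values (limma adjusted p = 0.0694) and with quantile normalization (limma adjusted p = 0.0537). The ratio of Ldhb to Ldha ranged from 1.798 to 13.0 under miR-431 and from 0.811 to 16.9 under miR-LacZ, with no difference between groups detectable over that spread (exact two-sided permutation p = 0.714, adjusted p = 0.857 over the 6 ratios).

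Slc16a1 (chromosome 3, 104442590 to 104462385) encodes MCT1. It was read at 5.40, 3.96, 3.62 and 3.40 FPKM in miR-431 libraries 5 to 8. In miR-LacZ libraries 1 to 4 it was read at 5.54, 4.80, 4.58 and 4.03 FPKM. Of the miR-431 libraries, 3 lay below every control, and library 5 lay above 3 of the controls. The means were 4.09 ± 0.902 FPKM under miR-431 and 4.74 ± 0.626 FPKM under miR-LacZ, with a log2 fold change of −0.18 (SE 0.13, 95% interval −0.48 to 0.12, limma adjusted p = 0.333). It was −0.23 in the 6 libraries other than 1 and 5 and −0.031 within that pair. Slc16a3, which encodes the lactate exporter MCT4, was higher than Slc16a1 in all 8 libraries, at 15.4 ± 4.50 FPKM under miR-431 and 10.97 ± 4.66 FPKM under miR-LacZ (log2 fold change 0.49, limma adjusted p = 0.201). Bsg, the chaperone that carries MCT1 to the membrane, averaged 546 ± 60.8 FPKM under miR-431 and 518 ± 78.4 FPKM under miR-LacZ.

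The 6 tested members gave exact two-sided permutation p-values of 1 for Slc2a2, 0.171 for G6pc2, 0.629 for Abcc8, 0.257 for Kcnj11, 0.943 for Ldha and 0.257 for Slc16a1. Each was lower or nearly level in the mean of miR-431 cells, and none differed beyond the spread between libraries. In the controls the levels fell in the order G6pc2, Abcc8, Kcnj11, then Slc2a2, Slc16a1 and Ldha, and last Hk1 and Hk2. The SDs of Slc2a2, Slc16a1 and Ldha in the controls overlap one another, so their order is not resolved.

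Of the tested genes of 5 lists around the same steps, 30.2% passed the limma threshold, near the 29.3% of all tested genes. Of 16 listed genes of glucose uptake and the glucose phosphate cycle 9 were tested, of which 2 rose, 1 fell and 6 did not pass (median log2 fold change 0.16). All 3 encode the bifunctional enzyme that makes and breaks down fructose 2,6-bisphosphate, an activator of glycolysis. Pfkfb2 rose to 33.1 ± 5.94 FPKM under miR-431, against 19.9 ± 1.42 FPKM under miR-LacZ (log2 fold change 0.69, limma adjusted p = 0.00371). Pfkfb3 rose to 6.34 ± 0.754 FPKM under miR-431, against 3.96 ± 0.601 FPKM under miR-LacZ (0.57, limma adjusted p = 0.00496). Pfkfb1 fell to 3.57 ± 0.0984 FPKM under miR-431, against 5.08 ± 0.518 FPKM under miR-LacZ (−0.41, limma adjusted p = 0.00758), and it lost its call once the neighbouring genes' median was subtracted (−0.16, limma adjusted p = 0.313).

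Around the KATP channel, 1 of 7 tested genes of the channel's alternative subunits, calcium entry and its coupling rose and 1 fell, of 9 in the table (median 0.12). Cacna2d1, an auxiliary subunit of voltage-gated calcium channels, rose to 40.7 ± 5.63 FPKM under miR-431, against 25.8 ± 5.85 FPKM under miR-LacZ (log2 fold change 0.65, limma adjusted p = 0.0130). Cacnb2, a beta subunit of the same channels, fell to 9.44 ± 0.996 FPKM under miR-431, against 13.7 ± 1.24 FPKM under miR-LacZ (−0.49, limma adjusted p = 0.00486). The pore genes Cacna1c and Cacna1d did not pass.

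Of 20 genes of lactate, pyruvate and monocarboxylate handling in the deposited data, 16 were tested, of which 3 rose and 1 fell (median 0.13). Besides Ldhb, Ldhd, a mitochondrial D-lactate dehydrogenase gene, rose to 5.42 ± 1.02 FPKM under miR-431, against 2.48 ± 0.152 FPKM under miR-LacZ (log2 fold change 0.87, limma adjusted p = 0.000526). Dlat, a core subunit of pyruvate dehydrogenase, rose to 16.7 ± 0.788 FPKM under miR-431, against 11.2 ± 0.743 FPKM under miR-LacZ (0.54, limma adjusted p = 0.000980). Pdk1, a kinase that switches pyruvate dehydrogenase off, fell to 6.86 ± 1.02 FPKM under miR-431, against 9.77 ± 1.32 FPKM under miR-LacZ (−0.45, limma adjusted p = 0.0194). Subtracting the neighbouring genes' median ended the calls of Ldhd, Dlat and Pdk1 (0.34, 0.22 and −0.30, limma adjusted p = 0.0831, 0.0781 and 0.109). That of Pdk1 also ended without miR-431 6 or 7 or miR-LacZ 2 (limma adjusted p = 0.0594, 0.0501 and 0.0593) and with libraries set to an equal sum without Mir431 (limma adjusted p = 0.0582).

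Of 14 genes of NADH shuttles and mitochondrial coupling 13 were tested, of which 3 rose and 0 fell by limma (median −0.013). Of these 13, 5 had an unadjusted limma p below 0.05, beside 4922 of all 11807 tested genes. Ucp2, a mitochondrial carrier gene, rose to 60.5 ± 6.75 FPKM under miR-431, against 41.7 ± 5.36 FPKM under miR-LacZ (log2 fold change 0.53, limma adjusted p = 0.00812; 0.38 and limma adjusted p = 0.0793 with the median of neighbouring genes removed). Got1, the cytosolic transaminase of the malate-aspartate shuttle, rose to 47.0 ± 5.22 FPKM under miR-431, against 32.6 ± 6.61 FPKM under miR-LacZ (0.53, limma adjusted p = 0.0223), and lost its call without miR-431 6 or 7 or miR-LacZ 3 (limma adjusted p = 0.0562, 0.0593 and 0.0510). Gpd2, the mitochondrial enzyme of the glycerol phosphate shuttle, rose to 29.1 ± 5.07 FPKM under miR-431, against 21.2 ± 1.85 FPKM under miR-LacZ (0.43, limma adjusted p = 0.0343). Its call ended without miR-431 5, 6 or 8 or miR-LacZ 2, 3 or 4 (limma adjusted p of 0.0520 to 0.0912) and without libraries 1 and 5 together (limma adjusted p = 0.102). It also ended with no filter (limma adjusted p = 0.0551) and with an equal sum without Mir431 (limma adjusted p = 0.0626).

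Of 20 further genes named in the field as disallowed in beta cells, 8 reached the level tested, and 3 of these rose and 1 fell. The median of these 8 was 0.61, beside −0.0053 over all tested genes, of which 29.3% passed. Genes below that level are left out of the median. Among them, with groups that did not overlap, Ndrg2 was higher under miR-431, while Acot7, Rest and Nfib were lower (values under other observations). Lmo4, a transcriptional cofactor gene, rose to 14.7 ± 4.69 FPKM under miR-431, against 3.84 ± 1.93 FPKM under miR-LacZ (log2 fold change 1.74, limma adjusted p = 0.00294). Oat, ornithine aminotransferase, rose to 13.2 ± 4.46 FPKM under miR-431, against 5.17 ± 1.25 FPKM under miR-LacZ (1.16, limma adjusted p = 0.00553). Zyx, which encodes the focal adhesion protein zyxin, rose to 15.7 ± 0.554 FPKM under miR-431, against 10.7 ± 1.11 FPKM under miR-LacZ (0.52, limma adjusted p = 0.00194). Pdgfra, a growth factor receptor gene and fibroblast marker, fell to 0.323 ± 0.0295 FPKM under miR-431, against 1.84 ± 0.450 FPKM under miR-LacZ (−1.09, limma adjusted p = 0.000239). It reached the level tested only through the miR-LacZ libraries, where it was at 1.27 to 2.28 FPKM, so its place in these counts rests on the filter; with no filter it was called too (limma adjusted p = 0.000604). Over the 5 lists together 12 of 53 tested genes rose and 4 fell. In the 6 libraries other than 1 and 5, 13 of these 16 called genes passed, Pdgfra was below the level tested, and all 16 had the same sign there and within libraries 5 and 1.

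**Figure D3:**
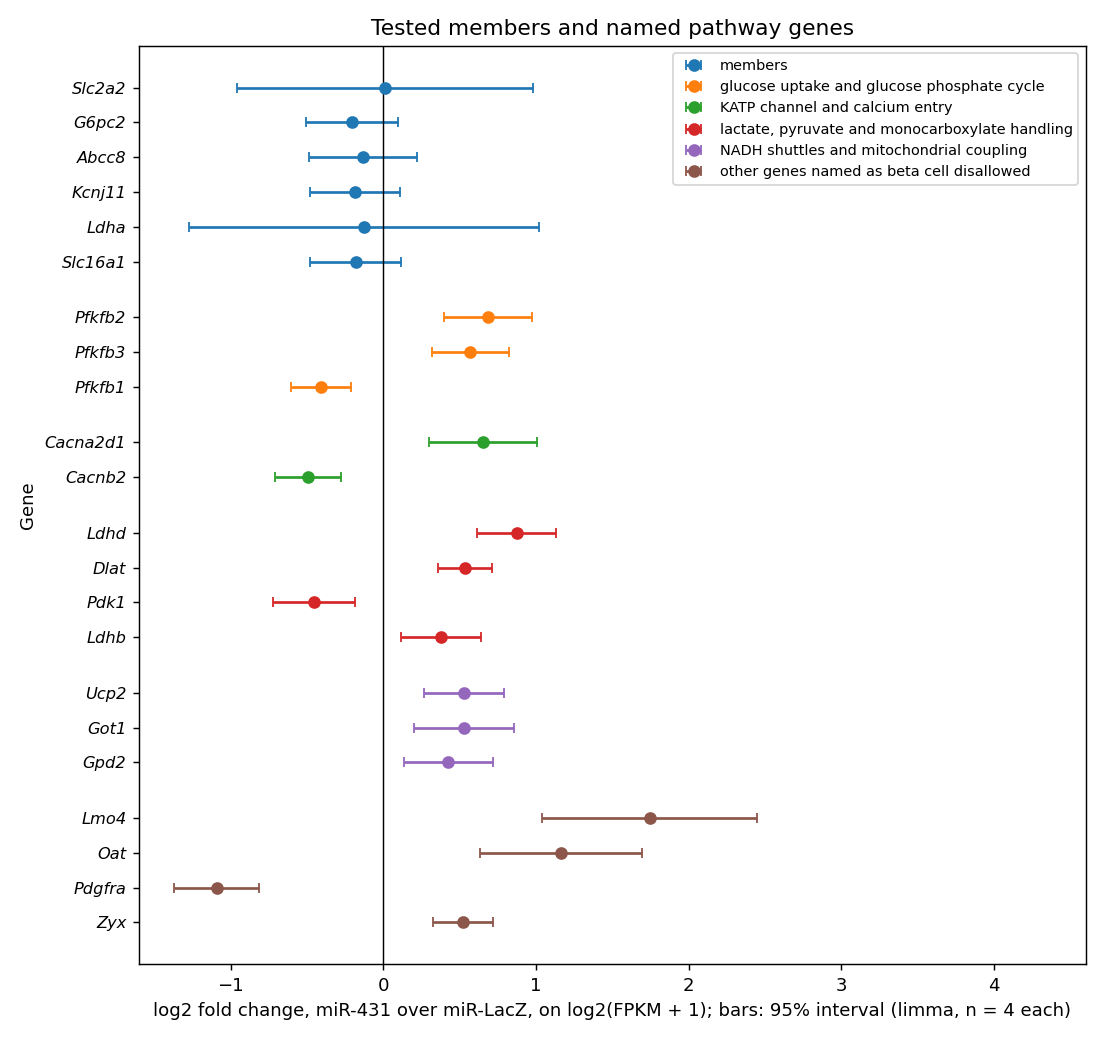
Log2 fold changes (miR-431 over miR-LacZ, on log2(FPKM + 1)) with 95% limma intervals for the 6 tested members and the 16 called genes of the 5 pathway lists, coloured by list. Every member's interval crosses 0, and those of Slc2a2 and Ldha are the widest; the list genes were picked because they passed, so their distance from 0 is not a separate result.

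The genes whose centred log2 profiles over the 8 libraries lay nearest to each tested member were found by root mean square difference. Slc2a2 was nearest to Grik3 (0.27) and Dcx (0.31), where its own deviation from a flat profile was 0.68. Ldha had no close match, with Bnip3 at 0.53 and Slc16a3 at 0.58 beside its own 0.81. The 4 members with flatter profiles had nearer neighbours. These were Pcdhac1 and Trappc1 for G6pc2 (0.060 and 0.067), Mapk8ip3 and Raver1-fdx1l for Abcc8 (0.085 and 0.096), Rpn2 and Tango6 for Kcnj11 (0.061 and 0.075), and Fzd7 and Ppp1r3d for Slc16a1 (0.067 and 0.068). None of these 12 genes passed the limma threshold between groups. That is no separate result, since they were picked for lying nearest to members that did not pass. With 8 libraries and 11807 genes, near profiles are easily found, and the distances are a description only.

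Position along the chromosome was also examined. The 30 tested genes around each member had median log2 fold changes of 0.21 at Slc2a2, −0.16 at G6pc2, −0.080 at Abcc8 and Kcnj11, −0.042 at Ldha and 0.15 at Slc16a1, and of 0.065 at Hk1 and 0.19 at Hk2. With the running median of 31 neighbouring genes removed from each library, the log2 fold changes were −0.18 for Slc2a2, −0.083 for G6pc2, −0.085 for Abcc8, −0.12 for Kcnj11, −0.11 for Ldha and −0.30 for Slc16a1. Of these, Slc16a1 came nearest to the threshold (limma adjusted p = 0.0771, within 0.0336 to 0.596 over all its alternatives).

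**Figure D4:**
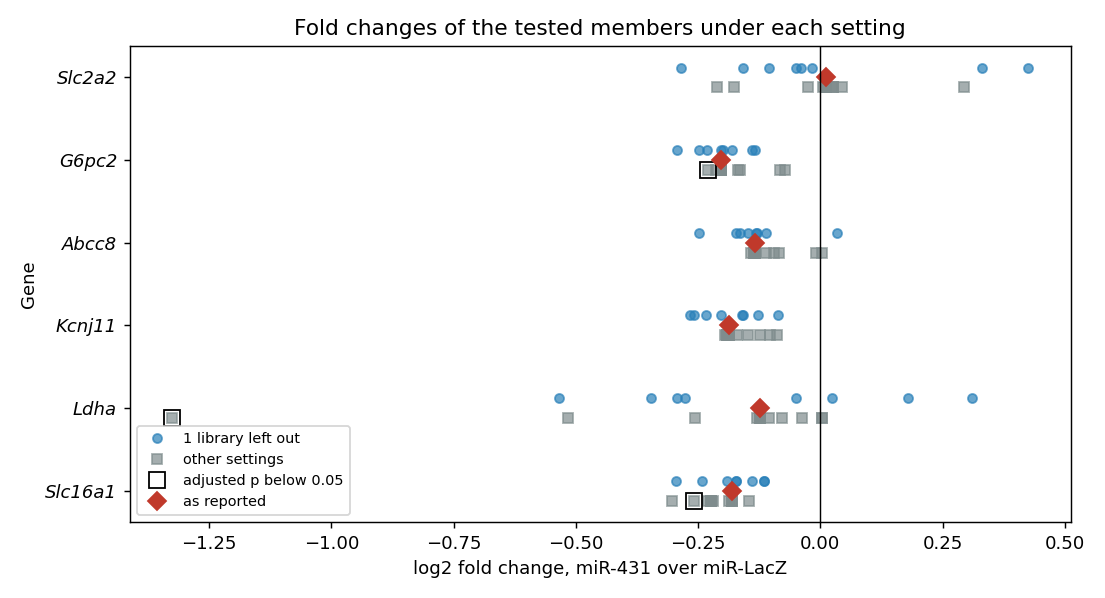
Log2 fold changes of the 6 tested members as reported (red diamonds), with each library left out (blue) and under the other settings (grey squares, boxed where the limma adjusted p fell below 0.05). G6pc2, Kcnj11 and Slc16a1 stay below 0 throughout, Slc2a2, Abcc8 and Ldha cross it, and the boxed values of G6pc2, Ldha and Slc16a1 all come from library weights.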

How the data were processed

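RNA of 8 N134 libraries (TruSeq kit, paired reads, per the labels' protocols) was deposited by the authors as 1 table of expression values, and the submitters' processing notes name, without role or order, the build mm9, Cufflinks 2.1.1, TopHat2 2.0.11, cutadapt and CASAVA 1.8.2. The unit FPKM was inferred from these tools and from the values. Depth is unknown, since the sources used here give no read counts. Libraries summed to 521889 to 625005 FPKM. Genes reaching 1 FPKM in 4 or more libraries were fitted with limma 3.58.1 (R 4.3.3, mean-variance trend) on log2(FPKM + 1), which understates changes of low genes, with Benjamini-Hochberg adjustment over all 11807 genes and a threshold of 0.05; the fit was tested on simulated data. Exact permutation tests and figures used Python 3.11.15 (scipy 1.17.1, matplotlib 3.10.9). Among genes below 0.1 FPKM, 11.2% to 23.2% shared 1 ratio in pairs among 6 libraries, 1.47% to 1.94% when miR-LacZ 1 or miR-431 5 was paired with these, and 7.03% when those were paired together. No library pair held near-identical values. Pathway genes were named as the called genes with the largest change, at most 4 per list, and the 2 genes nearest to each member in profile; other comparison genes (transporters, hexokinases, Bsg, markers and low genes) were chosen with their values in view. Alternatives changed the pseudocount, the level filter, the scaling, trend and weights, removed libraries, added a term for libraries 1 and 5, and removed the running median of neighbouring genes. Members and lists were chosen with earlier results of these data known. Some related genes are not reported here.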

Additional observations from a re-analysis of the deposited data

Results flagged for a closer look

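Among the 24 genes described in full, each group of 4 libraries was searched for a library far from the other 3, and 2 of 48 groups held one; about 1 in 20 would by chance. Ldhb was at 8.28 FPKM in miR-431 8, while the other miR-431 libraries lay between 5.76 and 5.96 FPKM; without that library its log2 fold change was 0.27 (limma adjusted p = 0.0854). Gpd2 was at 18.4 FPKM in miR-LacZ 3, while the other miR-LacZ libraries lay between 21.8 and 22.4 FPKM; without it the log2 fold change was 0.36 (limma adjusted p = 0.0835). No member held such a library.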

How the results depend on the processing

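The count of 0 called members held under 18 of the 21 alternatives. It was 3 with library weights (G6pc2 at −0.23, Ldha at −1.32 and Slc16a1 at −0.26; limma adjusted p = 0.0493, 0.0322 and 0.0336), 1 with no filter on low values (Hk1) and 2 with no filter and a pseudocount of 0.01 (Hk1 and Hk2), the last chosen after seeing the data. Over all genes, 3454 calls became 5845 with library weights and 2293 with the neighbour median removed, and 2310 to 3235 with 1 library left out. Signs changed for 3 members, none of which passed as reported, though Ldha passed with library weights: Slc2a2 stood at −0.026 with quantile normalization, −0.21 without libraries 1 and 5, −0.18 with the neighbour median removed and −0.29 to 0.42 with 1 library left out; Abcc8 at 0.0038 without libraries 1 and 5 and −0.25 to 0.034 with 1 library left out; Ldha at 0.0035 with a pseudocount of 0.01, with or without the filter, and −0.54 to 0.31 with 1 library left out. Among the 16 called list genes, calls held in 298 values and ended in 30, in 8 genes, and no sign changed. The cause of these changes was not tested. No paired analysis was run, because the labels state no pairing and the groups share no library numbers. Low values limit the precision of Hk1 and Hk2.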

Other observations

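Of 26 genes of the 5 pathway lists that lay below the level tested, the groups did not overlap for 9, with 5 higher and 4 lower under miR-431. Besides Hk3 and Hkdc1, those higher were Kcnj8, at 0.153 ± 0.0671 FPKM under miR-431 and 0.0225 ± 0.0109 FPKM under miR-LacZ, the malic enzyme gene Me3, at 0.131 ± 0.0258 FPKM under miR-431 and 0.0392 ± 0.0134 FPKM under miR-LacZ, and Ndrg2, another gene named as disallowed, at 0.972 ± 0.228 FPKM under miR-431 and 0.221 ± 0.0932 FPKM under miR-LacZ. Those lower were Slc5a1, which encodes the sodium-coupled glucose transporter SGLT1, at 0.107 ± 0.0453 FPKM under miR-431 and 0.827 ± 0.533 FPKM under miR-LacZ, and 3 genes named as disallowed. Of these, Acot7, a thioesterase gene, was at 0.629 ± 0.141 FPKM under miR-431 and 1.88 ± 1.36 FPKM under miR-LacZ. Rest, which encodes a repressor of neuronal genes, was at 0.0376 ± 0.00685 FPKM under miR-431 and 0.216 ± 0.185 FPKM under miR-LacZ. Nfib was at 0.00844 ± 0.00568 FPKM under miR-431 and 0.0184 ± 0.00662 FPKM under miR-LacZ. At these levels separated groups are not rare: of all genes above 0 in at least 1 library but below the level tested, 7.99% were separated with miR-431 higher and 8.31% with miR-431 lower. The shares among the 26 list genes were larger, but these genes were not matched in level to all low genes, and no set test was run. Of 2536 such genes with a mean of at least 0.1 FPKM, 16.0% were separated with miR-431 higher, and the other direction was not counted. Among the list genes, 11 had such a mean, and 5 of these were separated in either direction. Of these 5, Hkdc1 and Ndrg2 were higher under miR-431, while Slc5a1, Acot7 and Rest were lower. The count of 5 is thus not comparable with the 16.0%, which covers the higher direction only.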
